A study of Mus musculus with 2 samples.

Results

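Hemidesmosome and laminin-332 anchoring genes were compared between cystic and dense organoids, 3-dimensional cultures grown from the mouse pituitary. The members are the 9 genes Lama3, Lamb3, Col17a1, Col7a1, Itga6, Itgb4, Dst, Plec and Cd151. They were chosen by gene name as components of hemidesmosomes and their basement membrane ligands. All 9 were found among the 20647 genes of the deposited table of normalized counts. The cystic library was made from a culture at passage 2 of a GHCre/iDTR male mouse, and the dense library from a culture at passage 4 of a -/iDTR male mouse, both mice aged 10 weeks. Both mice thus carried iDTR, an allele for a Cre-dependent diphtheria toxin receptor, and the mouse of the cystic culture also carried GHCre, a Cre recombinase transgene named for the growth hormone gene. The labels name no toxin treatment. Both cultures were kept in PitOM medium. There was 1 library per group, so organoid type, passage and mouse differ together and cannot be told apart, and no test between the groups was possible. Each interval below is a 95% interval for counting error only.

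A hemidesmosome is a plaque that fastens the base of an epithelial cell to the basement membrane. Outside the cell, laminin-332 is bound by the integrin of the alpha 6 and beta 4 chains and by collagen XVII, and fibrils of collagen VII tie the basement membrane to the tissue underneath. Inside the cell, the plakins plectin and the epithelial form of dystonin (BP230) link these receptors to the keratins of the basal layer, encoded by Krt5 and Krt14. Hemidesmosomes of stratified epithelium such as skin hold all of these plaque proteins. In simple epithelium a plainer form is known, with the alpha 6 beta 4 integrin and plectin but without collagen XVII and BP230.

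Of the 9 genes, 8 had a mean of both libraries of at least 50 normalized counts and are called measured here. Col7a1 did not pass this filter. A measured gene is called dense-high or cystic-high where its values, each with a pseudocount of 1, differ by 4-fold or more. By this rule 6 of the 8 measured members were dense-high and 0 were cystic-high. Among all 11279 measured genes, 7.65% were dense-high and 7.86% cystic-high. At any size of difference, 7 of the 8 members leaned toward the dense library, as did 51.8% of measured genes, and 1 leaned toward the cystic library, as did 48.2%. The members fell into 3 ranges of difference. Lama3 and Col17a1 were at 1 and 2 reads in the cystic library, while their levels per kb of exon in the dense library lay above those of 89.1% and 98.6% of measured genes. Lamb3, Itga6, Itgb4 and Dst were present in both libraries and 9.24-fold to 22.7-fold higher in dense organoids. Plec and Cd151 differed by less than 4-fold and in opposite directions. The median log2 ratio of cystic over dense was -3.47 for the 8 members and -0.033 for all measured genes. Summed over the 9 members, the cystic library held 10182 normalized counts and the dense library 88547, or 0.0564% and 0.481% of their totals. In these bulk libraries, fewer cells of a type and less RNA per cell cannot be told apart.

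**Figure D1:**
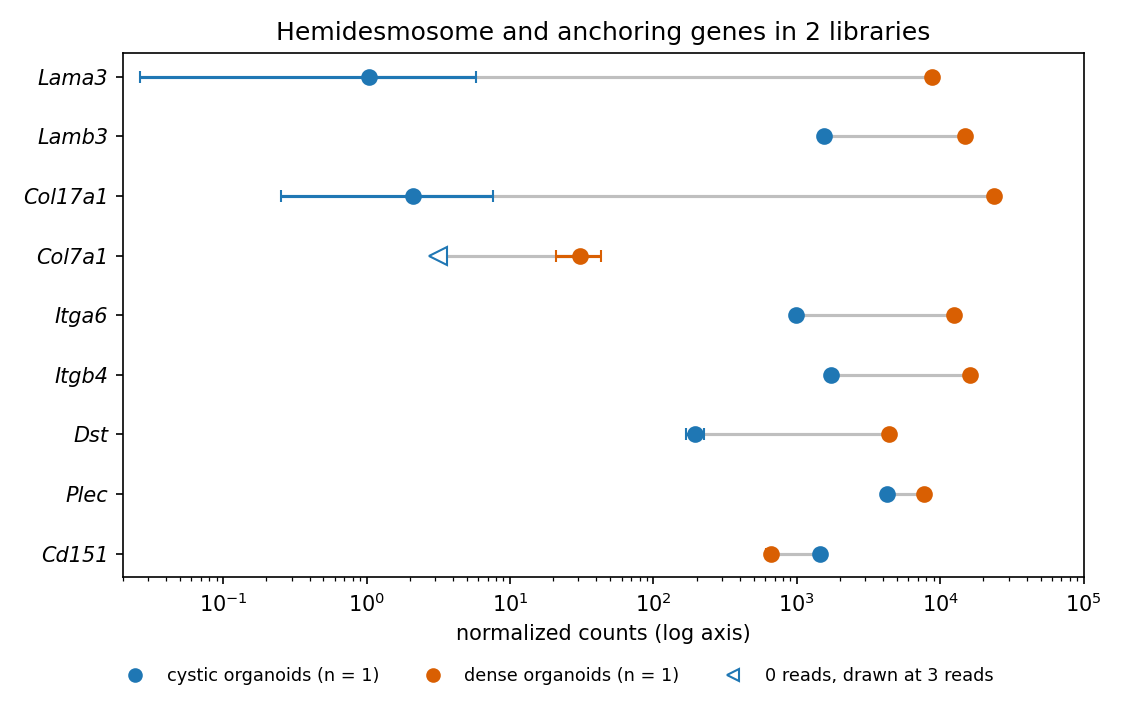
Normalized counts (x axis, log scale) of the 9 members (y axis) in the cystic (blue) and dense (orange) library. Bars are exact 95% Poisson intervals, and the open triangle marks Col7a1, which had 0 reads in cystic organoids and is drawn at 3 reads. Lama3 and Col17a1 sit at 1.05 and 2.09 in cystic organoids, far below their dense values of 8712 and 23534, while the points of Plec and Cd151 lie close together.

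The libraries held 17247431 reads (cystic) and 19258313 reads (dense), recovered from the deposited values, and a single read is worth 1.05 and 0.956 normalized counts, respectively. Markers of the tissue of origin were present in both, with the pituitary stem cell gene Sox2 at 2790 and 3885 normalized counts and Pitx1, a homeobox gene of oral ectoderm and pituitary, at 1276 and 5614 in cystic and dense organoids. Lhx3, which marks pituitary commitment, was at 172 in cystic organoids and had no read in dense organoids. Of 8 markers of the basal layer of stratified epithelium, 8 were dense-high, with summed levels of 1312 (cystic) and 543563 (dense). Of 6 markers of simple epithelium, 4 were cystic-high and 0 dense-high, with sums of 118868 and 32607. Most of the dense sum came from Cdh1 (21080) and Epcam (10446), which differed by less than 4-fold. The 6 dense-high members thus moved in the direction of the basal layer markers, whose part in the result was not tested. Dst and Plec are also active in muscle and glia. The 6 striated muscle markers summed to 219 in cystic and 46.8 in dense organoids, with no muscle marker measured. Des, Myh3 and Actc1 were at 0 in dense organoids, where Tnnt2 made up 44.9 of the sum, against 1.05 in cystic organoids. The glial marker Mbp had 1119 and 666. The 7 mesenchymal markers summed to 115 and 14.3 and the endothelial markers to 25.1 and 4.78, none of them measured. Pdgfra, Pdgfrb, Emcn and Kdr were at 0 in dense organoids. The 7 hormone genes summed to 3978 and 703, and all 4 measured ones were cystic-high, against 7.86% of all measured genes. Leukocyte markers summed to 426 and 3142, of which Cd68 made up 373 and 3123, with Ptprc at 1.05 and 0.

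Promoter sequences were available from RefSeq (build GRCm38.p6) for 5 of the 9 members in 8 windows, each from 250 bases before to 50 bases after an annotated start. Of these, 5 windows are shown, beginning with the member with the widest difference (Col17a1) and a laminin chain present in both libraries (Lamb3). Both windows of Dst follow, whose starts cannot be told apart in a count per gene. Neither Dst window holds a transcript start in the GENCODE M21 annotation. The last is for the member that was higher in cystic organoids (Cd151). Capitals mark matches on either strand to AP-1 (TGANTCA), AP-2 (GCCNNNGGC), the GC box (GGGCGG) or the TATA box (TATAAA).
Col17a1, chr19:47691993-47692292, minus strand: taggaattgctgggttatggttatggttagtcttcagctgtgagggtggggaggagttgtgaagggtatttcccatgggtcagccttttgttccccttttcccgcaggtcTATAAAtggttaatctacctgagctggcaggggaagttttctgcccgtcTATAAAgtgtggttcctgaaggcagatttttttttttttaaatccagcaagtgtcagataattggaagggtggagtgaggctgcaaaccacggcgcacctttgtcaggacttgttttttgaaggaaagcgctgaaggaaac
Lamb3, chr1:193301993-193302292, plus strand: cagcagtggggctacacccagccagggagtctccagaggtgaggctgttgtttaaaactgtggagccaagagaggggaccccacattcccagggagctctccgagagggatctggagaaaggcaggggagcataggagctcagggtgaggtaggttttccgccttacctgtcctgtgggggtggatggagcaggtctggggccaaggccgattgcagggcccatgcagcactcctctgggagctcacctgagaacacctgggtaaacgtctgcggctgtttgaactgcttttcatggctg
Dst, first window, chr1:34011345-34011644, plus strand: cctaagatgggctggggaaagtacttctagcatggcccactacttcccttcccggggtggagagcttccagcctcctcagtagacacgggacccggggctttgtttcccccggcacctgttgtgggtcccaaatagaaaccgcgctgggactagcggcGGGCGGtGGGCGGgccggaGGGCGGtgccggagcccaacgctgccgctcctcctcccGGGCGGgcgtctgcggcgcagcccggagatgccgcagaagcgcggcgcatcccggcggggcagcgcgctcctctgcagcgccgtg
Dst, second window, chr1:34160010-34160309, plus strand: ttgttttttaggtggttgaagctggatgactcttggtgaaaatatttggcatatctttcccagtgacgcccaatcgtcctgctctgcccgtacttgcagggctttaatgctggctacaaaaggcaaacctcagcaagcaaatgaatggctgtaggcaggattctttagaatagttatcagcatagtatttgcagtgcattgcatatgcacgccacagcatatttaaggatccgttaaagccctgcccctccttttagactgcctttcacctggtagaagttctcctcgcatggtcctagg
Cd151, chr7:141467112-141467411, plus strand: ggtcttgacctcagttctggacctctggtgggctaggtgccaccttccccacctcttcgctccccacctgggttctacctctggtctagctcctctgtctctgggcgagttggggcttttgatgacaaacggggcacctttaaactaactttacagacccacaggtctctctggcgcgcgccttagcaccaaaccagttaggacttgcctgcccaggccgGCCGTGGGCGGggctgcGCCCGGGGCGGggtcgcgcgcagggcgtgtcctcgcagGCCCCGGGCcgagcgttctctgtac

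The Col17a1 window held 2 TATA box matches, which begin 140 and 91 bases before the annotated start, and it was the only one of the 8 windows with this motif. Across all 32851 windows of the table, 13.6% held a TATA box match. Both Dst windows lacked it. The first Dst window had 4 GC box matches and a GC content of 70.3%, and the second had 0 matches and 46.0%. A GC box was found in 3 of the 8 windows, those of Dst (first window), Cd151 and Col7a1, against 35.7% of all windows. An AP-2 match was found in both windows of Cd151 and in no window of the other members (16.6% of all windows). In the Cd151 window shown, GC box and AP-2 matches overlap in part. AP-1 was matched in 0 of the 8 windows (7.81% of all). A loose p53 family pattern (CNNGNNNNNNCNNG), left unmarked, was present in all 8 windows and in 70.2% of all windows. These matches describe letters only, and the 4 other members were not searched.

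Lama3 and Lamb3, which encode chains of laminin-332, did not differ alike. Lama3 (ENSMUSG00000024421), the alpha 3 chain, which carries the integrin-binding end of the trimer, had 1.05 normalized counts in cystic organoids (0.0265 to 5.83), a single read, and 8712 in dense organoids (8534 to 8893). This is 8327-fold, with a counting interval of 1494 to 328949. By its log2 ratio, Lama3 ranked 16 among the 11279 measured genes, counted from the gene most shifted toward dense organoids. Lamb3 (ENSMUSG00000026639), the beta 3 chain, had 1543 in cystic (1465 to 1624) and 14908 in dense organoids (14675 to 15144). This is a 9.66-fold difference (9.16 to 10.2). The cystic library therefore held a substantial number of Lamb3 reads, 1475, beside the single read of Lama3. Per kb of exon, the level of Lama3 was 0.360 times that of Lamb3 in dense organoids.

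The 2 collagens were both nearly or wholly without reads in cystic organoids and lay far apart in level in dense organoids. Col17a1 (ENSMUSG00000025064), the transmembrane collagen of the plaque, had 2.09 normalized counts in cystic organoids (0.253 to 7.56), which is 2 reads, and 23534 in dense organoids (23241 to 23829). The difference was 11248-fold (3113 to 92880), and Col17a1 ranked 6 among all measured genes toward dense organoids. Col17a1 had the highest level per length of the 9 members in the dense library, 3915 normalized counts per kb of exon. This was above 98.6% of measured genes. Col7a1 (ENSMUSG00000025650), the collagen of anchoring fibrils, which fibroblasts also make in skin, had no read in cystic organoids and 30.6 normalized counts in dense organoids (20.9 to 43.2), or 32 reads. It was at least 9.75-fold higher in dense organoids when cystic organoids are put at the floor of 3 reads. Per kb of exon, the dense level of Col7a1 was 2.97, so that the level of Col17a1 was 1317 times as high.

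The integrin pair was present in both libraries. Itga6 (ENSMUSG00000027111), the alpha 6 subunit, had 980 normalized counts in cystic (918 to 1045) and 12527 in dense organoids (12313 to 12743), and was 12.8-fold higher in dense organoids (11.96 to 13.7). Itgb4 (ENSMUSG00000020758), the beta 4 subunit with the long cytoplasmic tail that binds plectin, had 1739 in cystic (1656 to 1824) and 16063 in dense organoids (15821 to 16308). This is a 9.24-fold difference (8.78 to 9.72). The counting intervals of these folds do not overlap, but they cover counting error only. Whether Itga6 differs more than Itgb4 beyond these libraries was not tested. Per kb of exon, the level of Itga6 was 0.438 times that of Itgb4 in cystic and 0.606 times in dense organoids. With the length of the longest transcript these ratios were 0.812 and 1.12, so which of the pair was higher in dense organoids depends on the length used.

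Other integrin subunits differed in both directions. Of 13 subunits in the table, 9 were measured, with 1 cystic-high, 0 dense-high and a median log2 ratio of 0.44. Itgb1, the beta chain shared by many integrins, had 17856 against 14674, a 1.22-fold higher value in cystic organoids (1.19 to 1.24). Itga3, whose product with beta 1 is a second receptor for laminin-332, was chosen after its values were seen. Its level per kb was 2444 in cystic and 1255 in dense organoids. The level of Itga6 per kb was 0.0444 times that of Itga3 in cystic organoids and 1.11 times in dense organoids. With the longest transcript these ratios were 0.0792 and 1.97. Itgb8, a subunit that pairs with alpha V, had 610 in cystic organoids and 0 reads in dense organoids, a bound of at least 213-fold. Itga1, a collagen receptor subunit, was 3.47-fold higher in cystic organoids (2.86 to 4.24). Chosen after their values were seen, Itga2 and Itga8, below the filter, had 0 reads in cystic organoids and 41.1 and 30.6 normalized counts in dense organoids (at least 13.1-fold and 9.75-fold), and Itga5 and Itgb5 were 2.99-fold and 2.29-fold higher in the dense library.

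**Figure D2:**
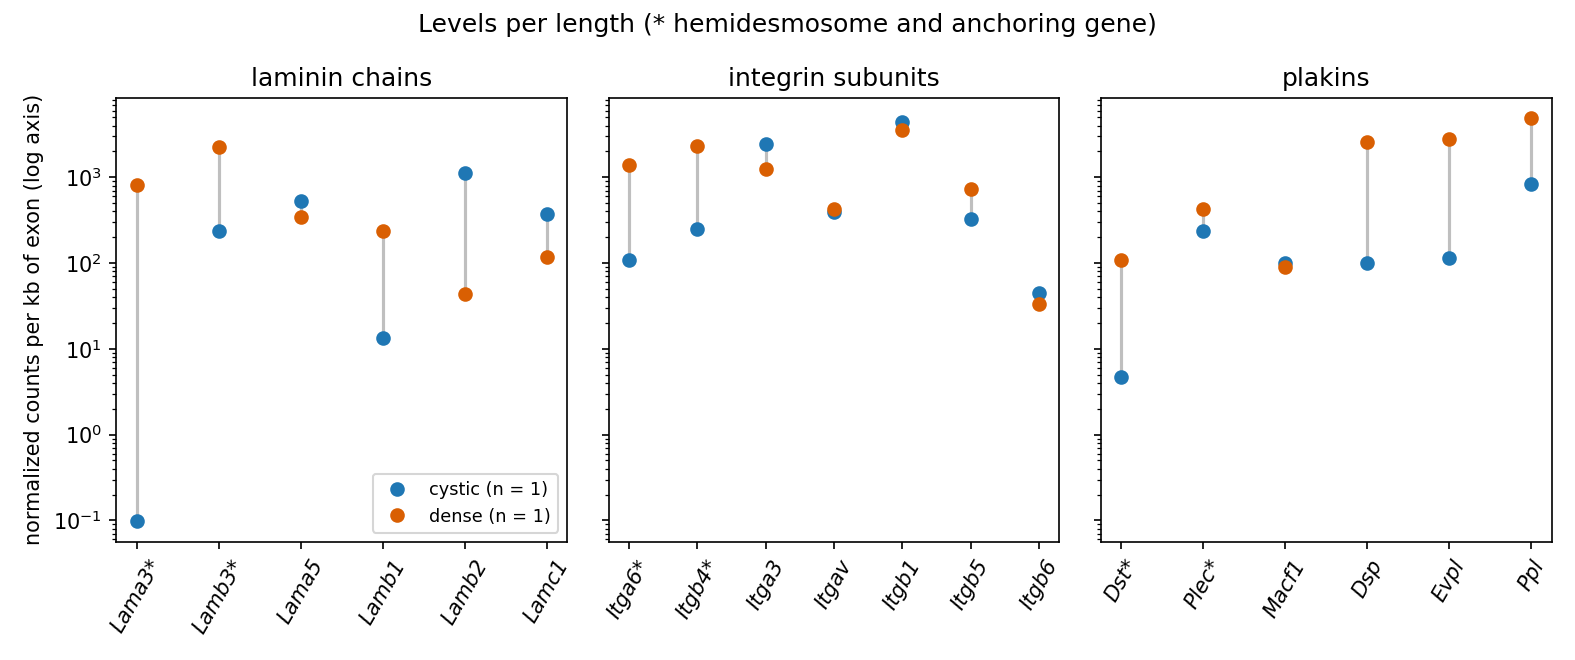
Normalized counts per kb of exon (y axis, log scale) of laminin chains, integrin subunits and plakins, the nonmembers chosen after their values were seen, in the cystic (blue) and dense (orange) library, with members of the hemidesmosome set starred. Starred genes except Plec are far lower in cystic organoids, while Lama5, Itgb1 and Macf1 differ little between the libraries.

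The plaque linkers differed from each other. Dst (ENSMUSG00000026131), which encodes BP230 and, from other starts, long forms of nerve and muscle, had 195 normalized counts in cystic (168 to 225) and 4417 in dense organoids (4291 to 4546). It was 22.7-fold higher in dense organoids (19.6 to 26.4). Plec (ENSMUSG00000022565), plectin, which binds keratins of simple and stratified epithelium and is found in many cell types, had 4282 in cystic (4152 to 4415) and 7700 in dense organoids (7532 to 7870), and was 1.80-fold higher in dense organoids (1.73 to 1.87). Per kb of exon, the level of Dst was 0.020 times that of Plec in cystic organoids and 0.252 times in dense organoids, or 0.0302 and 0.381 times with the longest transcript. The exon length used for Dst, 41.2 kb, takes in all its annotated forms. If the reads came from a shorter form, the level of Dst per kb would be higher than given. A count per gene does not show the form, so these values do not rank Dst against Plec. A Plec value may include reads of Parp10, which overlaps it on the same strand in GENCODE M21 and had 337 and 357 normalized counts. Among the other plakins, 3 of 4 were dense-high, and the median log2 ratio was -3.58. The 3 were Dsp (desmoplakin, 25.6-fold, 23.9 to 27.3), Evpl (envoplakin, 24.2-fold, 22.4 to 26.1) and Ppl (periplakin, 5.89-fold, 5.73 to 6.07), which serve desmosomes and the cornified envelope. The fourth, Macf1, a plakin that crosslinks actin and microtubules, had 3177 and 2792 and was chosen after its values were seen.

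Cd151 (ENSMUSG00000025510), a tetraspanin that binds the laminin-binding integrins, was the only one of the 9 members with a higher level in cystic organoids. It had 1441 in cystic (1365 to 1519) and 657 in dense organoids (608 to 708), a 2.19-fold difference (2.00 to 2.41). Per kb of exon, the level of Cd151 was 4.84 times that of Itga6 in cystic and 0.173 times in dense organoids. The gene Gm10575, annotated on the opposite strand, shares exon sequence with Cd151 and had 56.5 and 2.87 normalized counts. Antisense or opposite-strand genes also overlap Lama3, Itgb4 and Dst, with 0 in cystic and 7.65 to 67.9 normalized counts in dense organoids. The sources used here do not say whether strand was used in counting.

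**Figure D3:**
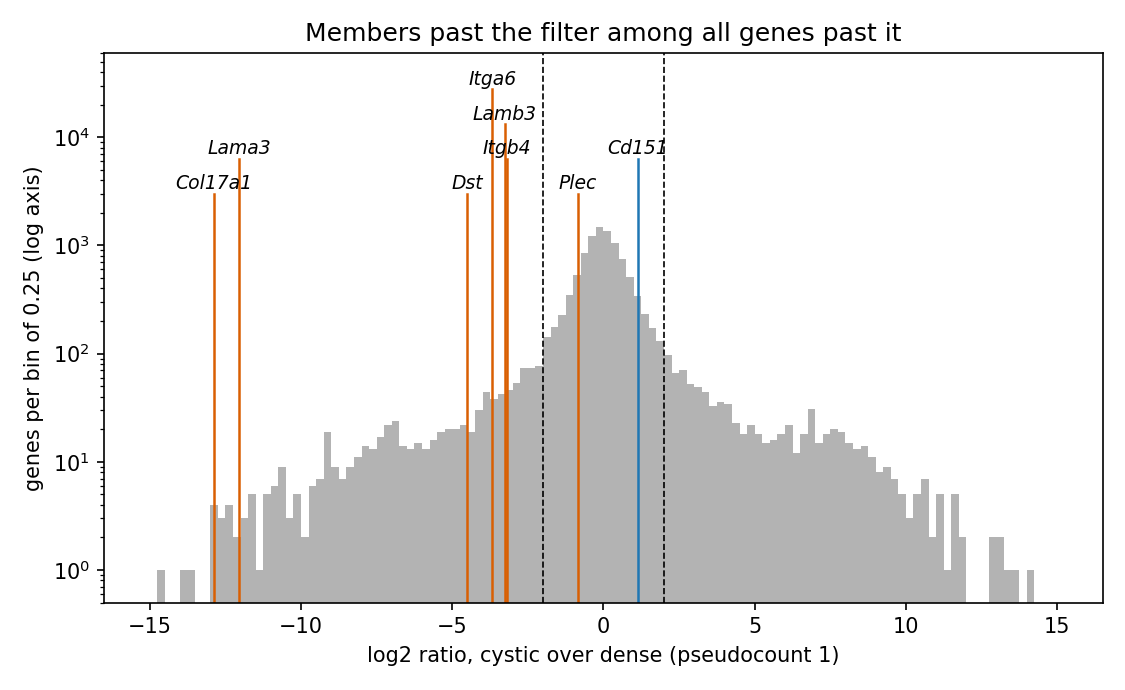
Histogram of the log2 ratio of cystic over dense (x axis, pseudocount of 1) for 11279 measured genes, with the number of genes per bin on a log y axis, and lines at the 8 measured members whose heights carry no value. Dashed lines mark 4-fold. Col17a1 and Lama3 lie at -12.89 and -12.06 in the left tail, and Plec and Cd151 fall inside the dashed lines.

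The basal keratins that hemidesmosomes anchor had the lowest median ratio of the 10 related lists. All 4 genes were dense-high (median log2 ratio -10.28). Krt14 had 20.9 in cystic and 175149 in dense organoids, and Krt5 had 16.7 and 139723. The simple epithelial keratins had the opposite direction, with 4 of 4 measured genes cystic-high and a median of 7.18. Krt8 was 232-fold (187 to 291), Krt19 187-fold (136 to 265) and Krt18 39.2-fold (36.7 to 41.9) higher in cystic organoids. All of these except Krt20 also stand among the epithelial markers given above.

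Other laminin chains and basement membrane genes moved in both directions. Of 8 other laminin chains, 4 were measured, 1 dense-high and 1 cystic-high, and their median log2 ratio was 1.15. Lamb2, the beta 2 chain, had 6800 against 264 normalized counts and was cystic-high (25.8-fold, 22.8 to 29.2). Lamb1, the beta 1 chain, was 17.6-fold higher in dense organoids (14.7 to 21.2), with 132 and 2321. Lama5, the alpha 5 chain of most adult epithelial basement membranes, had 6032 in cystic and 3875 in dense organoids. Per kb of exon, the level of Lama5 was 530 in cystic organoids, where Lama3 was at 0.0974. In dense organoids the level of Lama5 was 340 and that of Lama3 was 811. Of 10 other measured basement membrane genes, 3 were dense-high and 3 cystic-high. Nid2 (nidogen, a laminin linker) had 3401 and no read in dense organoids, Col4a2 (a type IV collagen chain) had 4.18 against 622 (149-fold, 57.8 to 547), and Col18a1, a basement membrane collagen, was 3.51-fold higher in the dense library (3.36 to 3.66). The median was -0.12, a value whose sign depends on the filter.

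Genes of focal adhesions, the actin-linked contacts with matrix, mostly differed by less than 4-fold. Of 13 measured, 11 were within 4-fold, 1 was dense-high and 1 cystic-high, and the median log2 ratio was -0.32. The pair outside were the kindlins, which activate integrins. Fermt1, the kindlin of epithelium, had no read in cystic and 306 in dense organoids (at least 97.5-fold), and Fermt2, the widely expressed kindlin, was 7.80-fold higher in cystic organoids (6.52 to 9.38). Parva, an actin-binding adaptor, had 6286 and 2684.

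**Figure D4:**
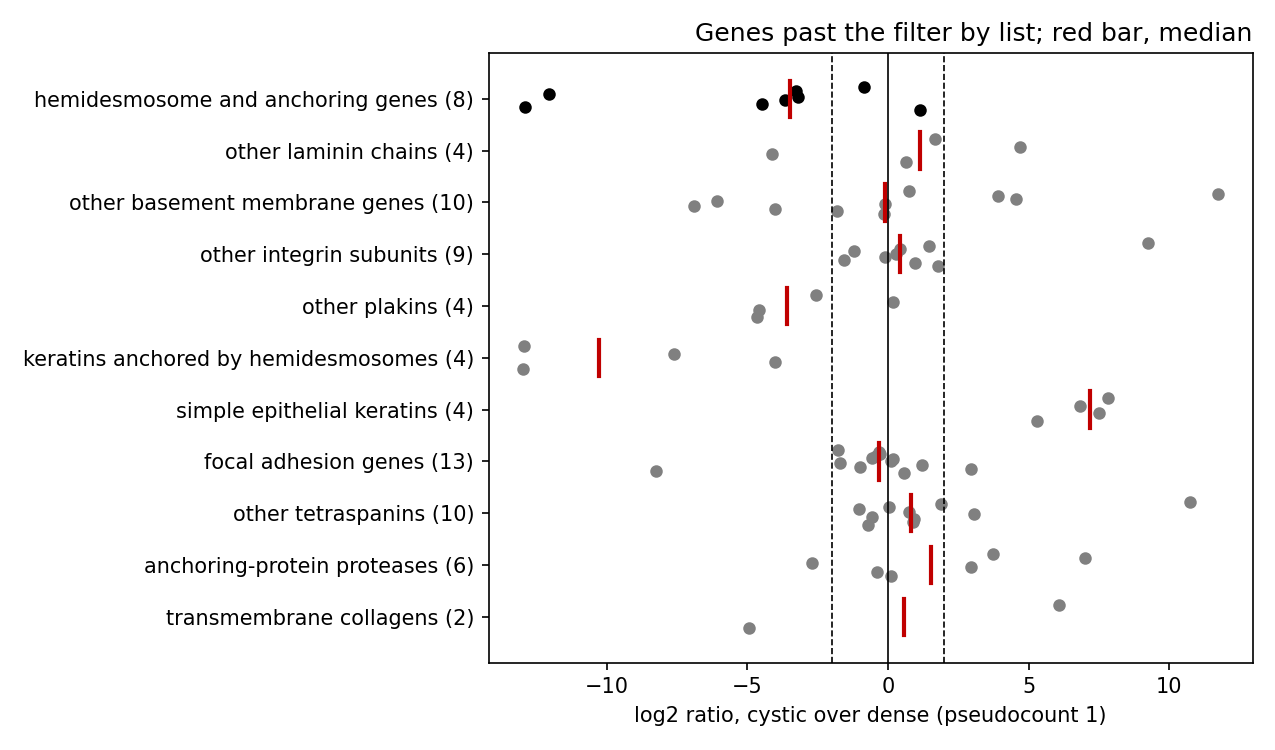
Log2 ratio of cystic over dense (x axis, pseudocount of 1) of each measured gene by list (y axis, with the number of measured genes), with the list median as a red bar and dashed lines at 4-fold. The hemidesmosome and anchoring genes have a median of -3.47, the basal keratins -10.28 and the simple epithelial keratins 7.18, while focal adhesion genes cluster near 0.

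For each member, the 3 genes nearest in the plane of both log2 values were taken as those with the most similar pattern. With 2 libraries this likeness rests on 2 values per gene, so many genes share it. Itgb4 was the nearest gene to Lamb3, and Lamb3 the nearest to Itgb4, at a Euclidean distance of 0.203 log2 units. Nearest to Lamb3 after Itgb4 were Dgka and Lad1. Nearest to Col17a1 were Cdsn, Dmkn and Adh7, at 0.421 to 1.05 log2 units. Lama3 was followed by Dsg1b, Adh7 and S100a7a, Itga6 by S100a16, Ablim1 and Sgk1, and Dst by Lgalsl, Serpinb2 and Ptgr1. Cd151 had 3 genes within 0.044 log2 units (Tmem184a, Pick1 and Nfia), and Plec had 3 within 0.151 (Ywhag, Hif1a and F11r). Col7a1, below the filter, had no measured gene closer than 1.70. Only measured genes were searched, so the filter itself keeps them away from Col7a1. This distance cannot be compared with those of the other members.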

How the data were processed

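RNA-seq values of 1 cystic and 1 dense pituitary organoid library were used. Per the labels' protocols, RNA was amplified with Smart-seq v4 before library preparation. The authors deposited a normalized read signal (normalized counts) per gene. The submitters' processing notes name the mm9 build, TopHat and DESeq 1.32.0. The counter, annotation and strand setting were not given in the sources used here. Within a column, 100% of values are a whole number (within 0.001 read) times the smallest nonzero value, and division by that value gave back the reads. The deposited signal equals reads divided by size factors of 0.956 (cystic) and 1.05 (dense). With 1 library per group no count test could be run on these reads.

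Of 20649 rows, 2 spike-in rows (0 and 2 reads) were left out. Ratios are log2(cystic + 1) minus log2(dense + 1). Folds are ratios of normalized counts with exact Clopper-Pearson intervals, and values have exact Poisson intervals, both at 95%. These cover counting error only, since PCR reads without molecular identifiers are not independent molecules. A gene at 0 was put at 3 reads (3.14 normalized counts in the cystic library, 2.87 in the dense). Lengths are union exon lengths from GENCODE M21 (GRCm38), present for 20589 genes. The only coordinates printed are those of the promoter windows, on GRCm38.p6, which is not the build the submitters named. The members and all lists were chosen with earlier results of these data known. Named genes are all members, the 2 widest ratios and the highest mean of each of 10 related lists, and the 3 nearest genes per member, plus those said to be chosen after their values were seen. Some genes that these lists or this rule cover are not reported here. Alternatives used other pseudocounts, filters, thresholds, scalings (including edgeR 4.0.16 in R 4.3.3) and lengths. Software was Python 3.11.15 with scipy 1.17.1.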

Additional observations from a re-analysis of the deposited data

How the results depend on the processing

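The log2 ratios of all 9 members kept their direction under 6 alternatives (3 pseudocounts and 3 scalings). Those of Lama3 ran from -12.46 to -7.42, those of Col17a1 from -13.15 to -8.82 and those of Col7a1 from -5.96 to -0.69, the values nearest 0 coming from a pseudocount of 50. The count of members called higher in dense organoids was 6 or 7 under 10 alternatives, and 7 with no filter, which adds Col7a1. Over all genes the share called in that direction was 9.39% with no filter, 15.6% at 2-fold and 5.18% at 8-fold. At 2-fold, 1 member, Cd151, was called higher in cystic organoids, as were 15.7% of all genes. The members' median was -3.67 with no filter, and their mean ratio was -4.91. The median of other basement membrane genes turned to 0.32 with no filter and was 0.19 as a mean, and that of the proteases turned to -0.13 with no filter. The median of the 2 measured transmembrane collagens, whose ratios have opposite signs, turned to -0.41 and -0.81 with pseudocounts of 10 and 50 and to -4.95 with a mean of at least 200, which leaves 1 gene. The cause of the other changes was not tested. Coding lengths from RefSeq proteins were not run. No paired analysis was possible because each group has 1 library. The fold of Lama3 and of Col17a1 rests on 1 and 2 cystic reads, so depth limits its size but not its direction in these libraries.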

Other observations

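Proteases that act on the anchoring proteins differed in both directions. Of 6 measured, 3 were cystic-high and 1 dense-high (4-fold or more apart), and the median log2 ratio was 1.53, which turned to -0.13 over all 8 in the table. Adam9, a sheddase that can cleave collagen XVII, had 12196 against 1590 and was 7.67-fold higher in cystic organoids (7.29 to 8.08). Mmp14, a membrane metalloprotease, had 3323 and 24.9 (134-fold, 91.1 to 205), and Plat, tissue plasminogen activator, had 6284 and 469 (13.4-fold, 12.2 to 14.7). The dense-high member was Bmp1, which trims procollagens and laminin chains and was chosen after its values were seen, with 208 and 1354 (6.51-fold, 5.61 to 7.59).

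Among the other tetraspanins, 8 of 10 measured genes differed by less than 4-fold, like Cd151, with a median log2 ratio of 0.82. Cd9 was the most abundant, with 19557 in cystic and 29110 in dense organoids. Tspan8 had 1696 and no read in dense organoids (at least 591-fold), and Tspan1 was 8.42-fold higher in cystic organoids (7.24 to 9.85). Transmembrane collagens other than Col17a1 differed in opposite directions. Col23a1 had 23.0 and 743 (32.3-fold higher in dense organoids, 21.2 to 51.8), and Col25a1 had 131 against 0.956, the latter a single read, and was 137-fold higher in cystic organoids (24.1 to 5446).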
